A study of Mus musculus with 12 samples.

Results

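Proteins that leave a cell or sit in its membranes enter the endoplasmic reticulum (ER), are given sugar chains there and depart in coated vesicles. The 42 genes described here encode parts of that route: the signal recognition particle and its receptor (7 genes), the protein channel and the proteins beside it (7), signal peptidase (5), the translocon-associated complex (4), oligosaccharyltransferase (6), the assembly and trimming of the sugar chain (6), and ER exit with its cargo receptors (7). They are a list of gene names by function, and each was read from the gene spots that carry its symbol, with the probe of the highest mean over the 4 groups standing for the gene. All 42 passed the filter on dim probes and are 42 of the 24963 genes tested.

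As background, ribosomes that begin a secreted protein are halted by the signal recognition particle and brought to its receptor on the ER. The nascent chain then passes through the Sec61 channel, signal peptidase removes the signal peptide, and oligosaccharyltransferase moves a preassembled sugar from a dolichol carrier onto the chain. B cells that turn into antibody-secreting cells are known to expand this machinery, largely through the unfolded protein response factor XBP1.

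The study measured RNA of mouse B cells on 12 one-colour Agilent arrays, 3 for each of 4 groups. Spleen B cells of female Balb/c mice, either control mice or mice with house dust mite (HDM) allergy, were purified and cultured for 2 days with a CD40 agonist, with lipopolysaccharide added for the last 5 hours. They were then stained with a secretion assay for the cytokine IL-10 and sorted into cells that released it (IL-10+) and cells that did not (IL-10-). Groups are named by sort and mice, such as IL-10+ control. Every group had the same culture with CD40 agonist and lipopolysaccharide, and no uncultured cells are among them. The labels give neither the age of the mice nor the way allergy was induced. They are also silent on whether replicates are separate animals or cultures, so p-values measure only the spread between these samples, which may be technical.

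A level here is the log2 processed signal minus the log2 75th percentile of its array, and levels of different genes are not compared, because probes differ in brightness. The share of gene spots well above background ran from 47.7% to 62.4%. The lowest was that of IL-10- HDM array 3, which also stood apart: its mean correlation with the rest was 0.775, whereas every other array had 0.867 to 0.901. All 6 IL-10+ arrays lay on slide 1 with arrays 1 and 2 of the IL-10- control group, and array 3 of that group shared slide 2 with the 3 IL-10- HDM arrays, so in HDM mice sort and slide cannot be told apart. The sort check held on every array: Il10 was at 6.97, 7.57 and 6.92 in IL-10+ control and 6.89, 6.97 and 6.42 in IL-10+ HDM cells, and at 1.12 or below on all 6 IL-10- arrays. Of 8 B cell markers, 7 were well above background on all 12 arrays and Cd79a on 11, the exception being IL-10- HDM array 3. Summed marker levels, on a linear scale relative to the 75th percentile, lay between 1.85 and 3.91 for T cells on all arrays. They were 65.5 to 93.0 for B cells, 373 to 510 for monocytes and macrophages, and 61.5 to 95.8 for dendritic cells. Because probes differ in brightness, such sums do not give cell numbers. Between IL-10+ and IL-10- cells of HDM mice, 7 monocyte and macrophage markers had a median log2 difference of 0.066, 5 being positive and 2 negative. The largest was 4.06 and the lowest -0.79 (smallest adjusted p of that list 0.0564 in limma). The part of other cells was not tested.

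No gene of the secretory route passed the test in any of 6 comparisons (limma, Benjamini-Hochberg adjusted p under 0.05 over all 24963 genes). Few genes of the whole array did: 0.016% in IL-10+ against IL-10- cells of control mice, 0.168% in the same contrast of HDM mice, 0.268% with both averaged, 0.00401% in HDM against control mice within IL-10+ cells, 0.0481% within IL-10- cells, and 0.012% for the difference between the sort contrasts of HDM and control mice. At an unadjusted p under 0.05 the counts among the 42 genes were 1, 8, 3, 1, 6 and 3 in that order, against 4.06%, 13.3%, 9.17%, 2.28%, 9.13% and 6.46% of all genes. The results below are therefore levels, signs and sizes, set beside the same measures over all genes. These are pooled RNA samples, so fewer cells with a transcript and less of it per cell cannot be told apart.

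**Figure D1:**
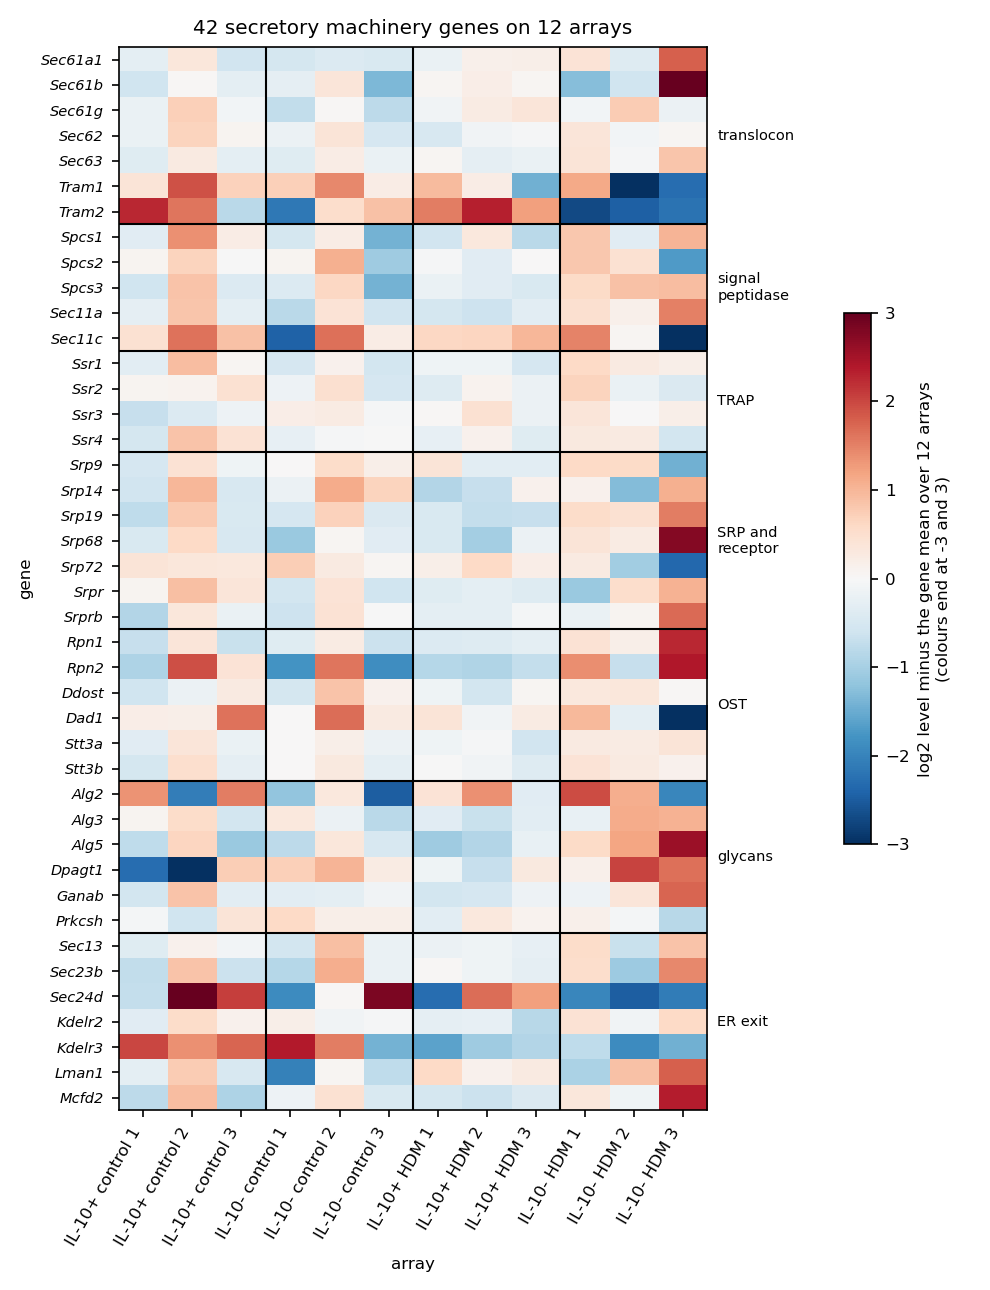
Level of each of the 42 genes (vertical axis, by role) on each of the 12 arrays (horizontal axis), as log2 level minus that gene's mean over all arrays; red is above and blue below the mean, black lines separate groups and roles, and colours end at -3 and 3. IL-10- HDM array 3 holds the highest value of 12 for 18 genes and the lowest for 7, while IL-10- control array 3 holds the lowest for 10.

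In HDM mice most of the 42 genes had a lower mean in IL-10+ than in IL-10- cells. The log2 difference was negative for 32 and positive for 10, against 43.1% negative over all genes, and the median was -0.44 against 0.16 over all genes. For 13 genes every IL-10+ HDM array was below every IL-10- HDM array (11.2% of all genes), and for 1, Tram2, every IL-10+ array was above (11.4% of all genes). The 13 were Spcs3 and Sec11a of signal peptidase, Ssr1 of the translocon-associated complex, Srp19 and Srp68 of the signal recognition particle, Rpn1, Rpn2, Stt3a and Stt3b of oligosaccharyltransferase, Alg3 and Alg5 of glycan assembly, and the cargo receptor genes Kdelr2 and Mcfd2. Further probes past the filter did not all have this sign. That of Spcs3 gave 0.51 for this contrast and those of Ssr1 gave -0.68 and 0.59, while those of Sec11a and Stt3b were negative. Among the 14234 genes well above background on all 12 arrays, 54.1% had a negative difference and 17.9% lay wholly below, against 31 and 13 of the 35 members in that class. The share of all genes that is lower is thus larger among brighter genes, and the members are mostly bright.

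Without IL-10- HDM array 3, 32 genes were still negative, the median was -0.42, and 17 lay wholly below (16.2% of all genes), although 2 rather than 8 had an unadjusted p under 0.05. The size depended on the scaling. The median was -0.14 with 29 genes negative under quantile normalization, and -1.24 with 36 negative in the authors' deposited table, where the median of all genes was itself shifted to -0.64. Relative to the median of all genes it was -0.60 in both the 75th percentile scaling and the authors' table, and -0.12 after quantile normalization. Of 10 plasmablast markers 9 were measured, and their median difference in this contrast was 0.42, with 6 positive and 3 negative. Their summed linear level, most of which came from Irf4, was 128 to 152 on the IL-10+ HDM and 168 to 327 on the IL-10- HDM arrays, against 116 to 259 and 113 to 155 in IL-10+ and IL-10- cells of control mice. Sdc1, which marks plasma cells, was above background on 5 of 12 arrays. Igj (J chain), which joins secreted antibodies, was at 1.33, 1.85 and 2.53 on the IL-10+ HDM and -6.00, -5.52 and -4.45 on the IL-10- HDM arrays, and was the marker that passed the test here, on the higher side (adjusted p = 0.0145 in limma). The part of these cells in the result was not tested.

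In control mice the median of the same contrast had the other sign and was smaller. The log2 difference was positive for 25 of the 42 genes, against 46.8% of all genes, with a median of 0.22 against -0.037 over all genes. The groups overlapped for every gene but Ssr3, which was lower in IL-10+ cells on every array (4.7% of all genes, and 4.75% wholly above). The positive sign rested on 2 arrays. Without IL-10+ control array 2 the median was -0.020 with 18 genes positive and 24 negative, and 7 genes then lay wholly below (9.48% of all genes). Within slide 1, which leaves out IL-10- control array 3, it was -0.11, again with 24 genes negative.

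Averaged over both kinds of mice, 27 genes were negative and 15 positive (47.3% of all genes negative), the median was -0.22 against 0.037, and for no gene were the 6 IL-10+ arrays wholly above or below the 6 IL-10- arrays (0.701% and 0.236% of all genes). Among genes well above background on all 12 arrays 56.4% were negative, against 26 of the 35 members in that class. The difference between the sort contrasts of HDM and control mice was negative for 31 of 42 genes (43.9% of all genes), with a median of -0.59 against 0.16, or -0.16 with 25 negative after quantile normalization. It was tested gene by gene and passed for none, the smallest adjusted p in limma being 0.757.

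**Figure D2:**
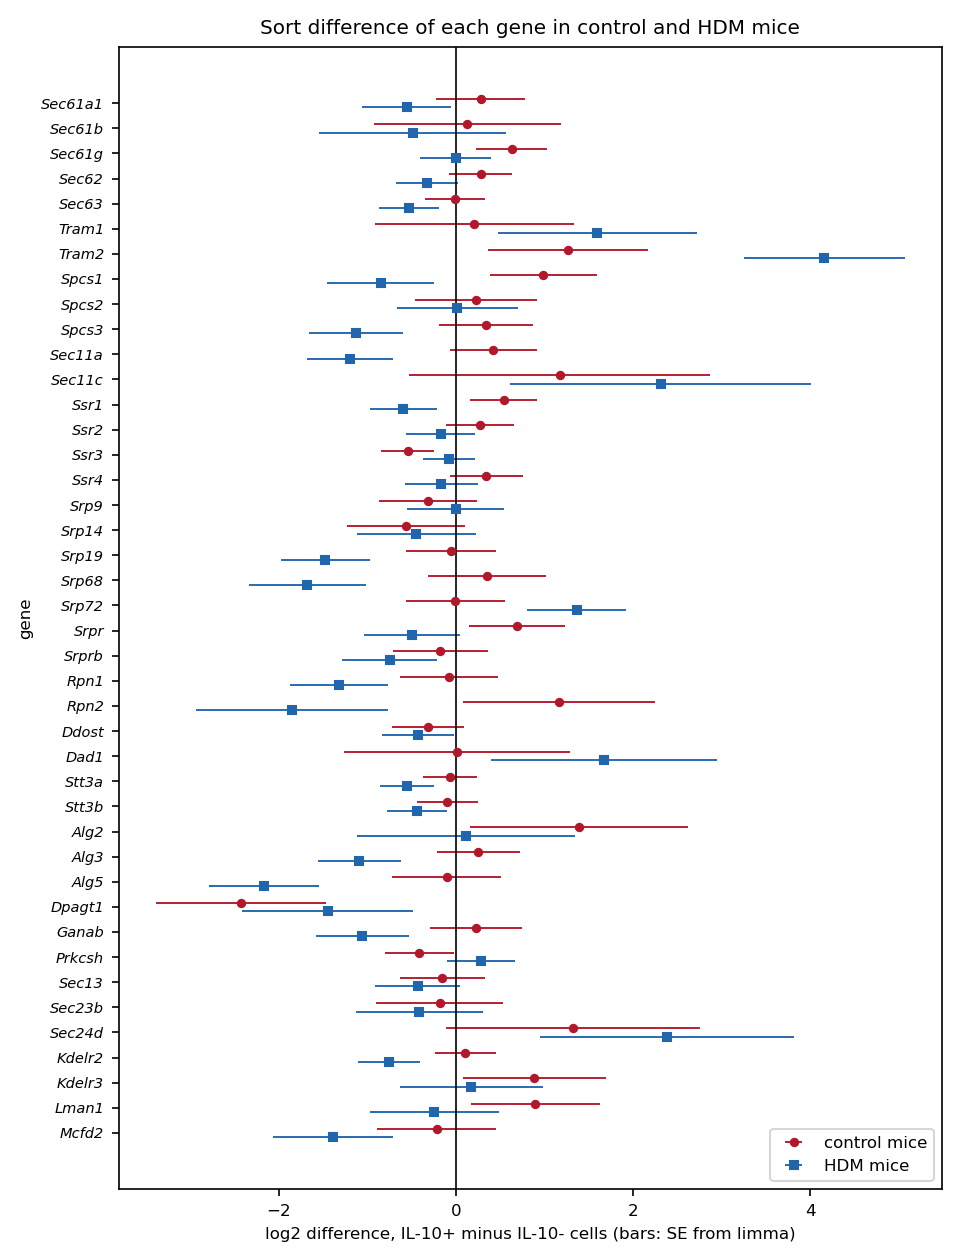
Log2 difference of IL-10+ minus IL-10- cells (horizontal axis) for each of the 42 genes (vertical axis, by role), in control mice (red circles) and HDM mice (blue squares); bars are standard errors from limma. Most blue squares lie left of 0, with a median of -0.44, and Tram2, whose IL-10- HDM arrays were not above background, lies farthest right at 4.16; the red circles centre on a median of 0.22.

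Between HDM and control mice the signs differed by cell type. In IL-10- cells 31 of 42 genes had a higher mean in HDM mice (47.9% of all genes), with a median log2 difference of 0.34 against -0.043 over all genes; 5 genes lay wholly above (5.72% of all genes) and 3 wholly below (6.16%). The 5 were Sec61a1, Ssr1, Srp68, Stt3a and Alg5, and the 3 were Tram2, Prkcsh and Sec24d. For Tram2 and Sec24d neither the IL-10- HDM arrays nor IL-10- control array 1 were above background. That control array was at -5.96 for Tram2, against -6.03 or below on the HDM arrays. For Sec24d it was at -5.65, against -5.73 or below. Among genes well above background on all 12 arrays, 57.1% had a positive difference and 8.4% lay wholly above, against 29 and 5 of the 35 members in that class. After quantile normalization the signs of the 42 genes were even, 21 and 21, with a median of 0.055, and 35 were positive in the authors' table. Leaving out IL-10- control array 2 gave a median of 0.70, and slide 2 alone, with 1 control and 3 HDM arrays, gave 0.61.

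In IL-10+ cells, all of whose arrays lay on slide 1, 31 of 42 genes had a lower mean in HDM mice (43.7% of all genes), with a median of -0.27 against 0.074. Sec11a, Srpr and Kdelr3 lay wholly below (3.75% of all genes) and Sec61b wholly above (5.86%). After quantile normalization 25 were negative, and 37 in the table of the authors. The sign split rested on IL-10+ control array 2: without it 21 genes were positive and 21 negative, and the median was -0.0015. The contrast of IL-10- cells shares its HDM arrays with the sort contrast of HDM mice, and that of IL-10+ cells shares its control arrays with the sort contrast of control mice, so the 4 medians are not independent of one another.

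**Figure D3:**
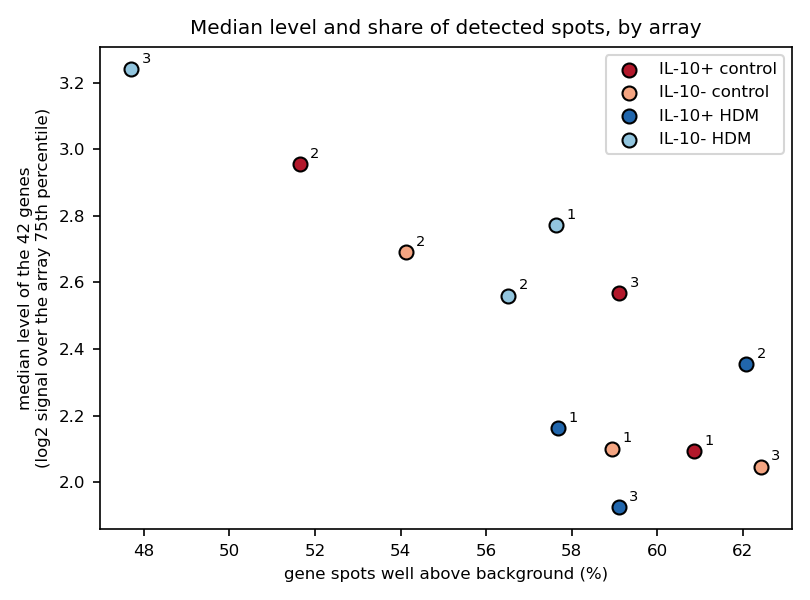
Median log2 level of the 42 genes on each array (vertical axis) against the percentage of gene spots well above background on that array (horizontal axis); each point is 1 array, coloured by group and numbered. The array with the fewest detected spots, IL-10- HDM array 3 at 47.7%, has the highest median, 3.24, and IL-10+ control array 2 follows with 51.6% and 2.96.

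Detection moved with the level of these genes across arrays. The 4 arrays with the lowest percentage of spots above background, at 47.7%, 51.6%, 54.1% and 56.5%, had a median member level of 3.24, 2.96, 2.69 and 2.56, whereas the other 8 lay between 1.93 and 2.77. These 4 were IL-10- HDM array 3, IL-10+ control array 2, IL-10- control array 2 and IL-10- HDM array 2, from 3 of the 4 groups. The part of detection in the group differences was not tested. Spread over the 12 arrays (SD) ran from 0.298 for Stt3a to 2.24 for Sec11c; its median was 0.755 for the 42 genes and 0.856 for all genes, and among genes above background on every array 0.661 and 0.599.

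Promoter sequence was available by symbol for 31 of the 42 genes (33 RefSeq promoters, GRCm38.p6, a later build than the mm9 positions given for probes). In the 250 bases before the start, both strands were searched for motifs known from the unfolded protein response. The UPRE core TGACGTGG, to which XBP1 can bind, was found before Sec24d and Kdelr3, that is in 6.06% of member promoters against 0.563% of all 32851. The pentamer CCACG, which the reverse strand of the UPRE core contains, was found in 16 member promoters, 48.5% against 28.3%. ERSE (CCAAT, any 9 bases, CCACG), ERSE-II (ATTGG, any 1 base, CCACG) and the cyclic AMP element TGACGTCA were found in none (0.113%, 0.0304% and 1.55% of all). A match is a match of letters and shows no binding. The shares were not adjusted for base composition, and its part in them was not tested. The promoters of Kdelr3 (chr15:79516158-79516407, plus strand) and Sec24d (chr3:123267246-123267495, plus strand) are printed because they hold the UPRE core, and those of Tram2 (chr1:21079226-21079475, minus strand) and Alg5 (chr3:54735289-54735538, plus strand) because these genes had the smallest p on the higher and the lower side of the sort contrast in HDM mice. Each is the 250 bases before the start, 5′ to 3′ on the gene's strand, with matches to the UPRE core or to CCACG on either strand in capitals.
Kdelr3: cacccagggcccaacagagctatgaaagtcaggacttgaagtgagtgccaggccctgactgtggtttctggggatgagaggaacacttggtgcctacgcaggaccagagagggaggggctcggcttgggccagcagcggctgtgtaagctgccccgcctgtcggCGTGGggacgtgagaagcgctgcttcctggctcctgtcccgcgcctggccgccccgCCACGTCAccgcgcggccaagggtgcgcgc
Sec24d: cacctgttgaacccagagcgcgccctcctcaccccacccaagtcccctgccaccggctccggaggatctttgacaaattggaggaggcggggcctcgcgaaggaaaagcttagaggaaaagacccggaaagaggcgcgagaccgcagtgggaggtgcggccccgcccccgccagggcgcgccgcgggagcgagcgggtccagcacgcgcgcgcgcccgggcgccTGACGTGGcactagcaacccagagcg
Tram2: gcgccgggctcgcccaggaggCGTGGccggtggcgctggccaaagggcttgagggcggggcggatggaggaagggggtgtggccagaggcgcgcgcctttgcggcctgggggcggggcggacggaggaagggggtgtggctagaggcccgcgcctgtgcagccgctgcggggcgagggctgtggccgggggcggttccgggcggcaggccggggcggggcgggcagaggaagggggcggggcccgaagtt
Alg5: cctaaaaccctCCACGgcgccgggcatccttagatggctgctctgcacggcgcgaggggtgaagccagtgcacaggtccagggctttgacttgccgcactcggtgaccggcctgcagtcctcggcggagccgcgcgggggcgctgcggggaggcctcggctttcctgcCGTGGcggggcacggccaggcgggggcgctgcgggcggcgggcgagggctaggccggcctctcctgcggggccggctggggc

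**Figure D4:**
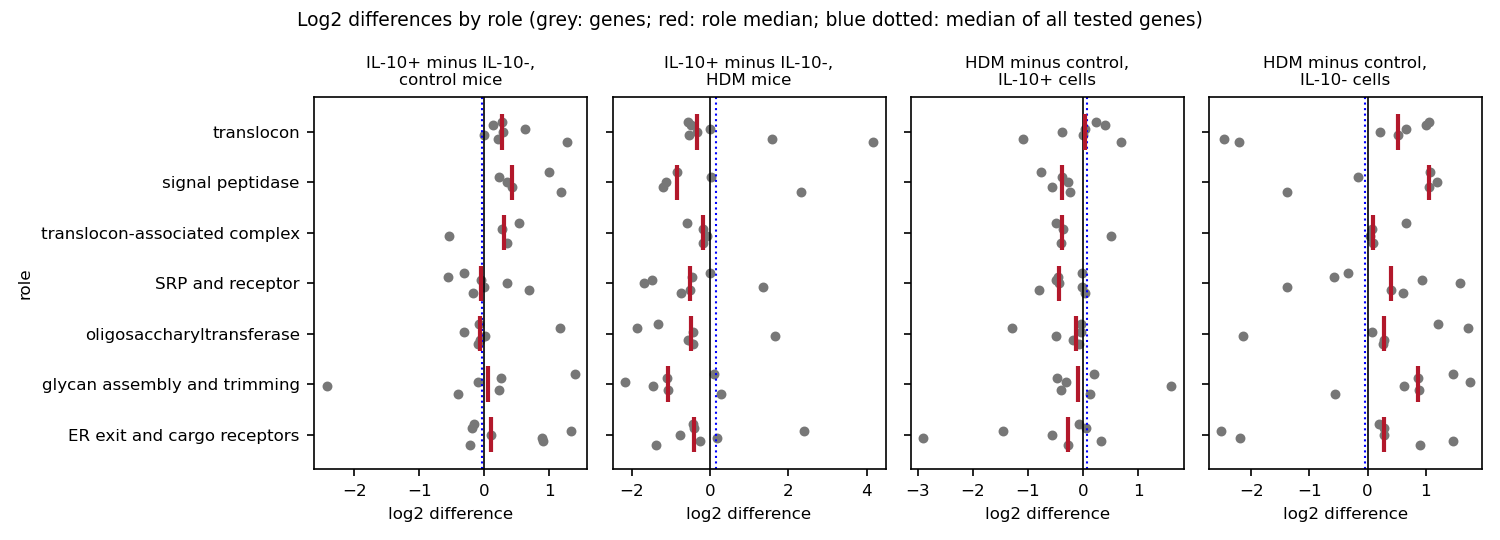
Log2 difference of each gene (grey points) by role (vertical axis) in 4 comparisons (panels, horizontal axis with its own range in each); the red bar is the role's median and the blue dotted line the median of all tested genes. In HDM mice all 7 roles have a negative sort median, from -1.08 for glycan assembly and trimming to -0.17 for the translocon-associated complex, which turns to 0.21 after quantile normalization.

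The signal recognition particle and its receptor had a median log2 difference of -0.50 between IL-10+ and IL-10- cells of HDM mice, with 6 of 7 genes negative, and of -0.054 in control mice, or 0.083 there in the authors' deposited table. Srp19, which helps assemble the particle on its RNA, was at 2.53, 2.27 and 2.32 in IL-10+ HDM cells and 3.54, 3.47 and 4.54 in IL-10- HDM cells. All 3 IL-10- HDM arrays were higher (log2 difference -1.48, SE 0.51, unadjusted p = 0.0151, adjusted p = 0.300; limma). In control mice it was at 2.24, 3.78 and 2.55 in IL-10+ and 2.49, 3.68 and 2.56 in IL-10- cells, with array 2 of each group high and the groups overlapping. Srp68, which forms a heterodimer with Srp72 on the particle, was at 0.88, 0.31 and 1.16 in IL-10+ HDM and 1.72, 1.58 and 4.09 in IL-10- HDM cells (log2 difference -1.68, SE 0.66, unadjusted p = 0.0299, adjusted p = 0.338). The groups did not overlap, but without IL-10- HDM array 3 the difference was -0.87. Against IL-10- control cells, at 0.23, 1.39 and 1.01, the IL-10- HDM level was higher by 1.58 (SE 0.66, adjusted p = 0.528), or 0.77 without that array.

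Srp72 ran the other way from its partner. It was at 4.73, 5.14 and 4.74 in IL-10+ HDM and 4.82, 3.51 and 2.19 in IL-10- HDM cells (log2 difference 1.36, SE 0.56, unadjusted p = 0.0340, adjusted p = 0.346; limma), and the groups overlapped. The 2 low values were IL-10- HDM arrays 2 and 3, while the 9 arrays of the other groups lay between 4.61 and 5.27; without IL-10- HDM array 3 the difference was 0.70. A second probe of Srp72 gave -0.084 for this contrast against 1.36, so the probes disagree. Srpr, the docking subunit of the receptor, was at 1.55, 2.37 and 1.85 in IL-10+ control and 1.11, 1.19 and 1.08 in IL-10+ HDM cells (log2 difference -0.80, SE 0.54, unadjusted p = 0.172, adjusted p = 1.00), every HDM array being lower. Its partner Srprb, which anchors it to the membrane, had a difference of 0.027 there. Srp9 and Srp14, the pair that halts elongation, had sort differences of -0.0026 and -0.45 in HDM mice, each within its SE.

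The channel and the proteins beside it had a median sort difference of -0.33 in HDM mice and 0.28 in control mice. The 5 Sec genes of this role, which encode the channel subunits Sec61a1, Sec61b and Sec61g and the accessory proteins Sec62 and Sec63, had sort differences in HDM mice between -0.56 and -0.00063. A second Sec63 probe, above background on 8 of 12 arrays, gave 4.15, while second probes of Sec61b and Sec62 gave -0.25 and -0.90. Sec61a1 was at 0.84, 0.95 and 0.89 in IL-10- control and 1.76, 0.96 and 3.15 in IL-10- HDM cells, without overlap, the last array lying highest of all 12. Sec61g was at 2.67, 3.58 and 2.80 in IL-10+ control and 2.14, 2.92 and 2.09 in IL-10- control cells; these overlap (log2 difference 0.63, SE 0.40, unadjusted p = 0.146, adjusted p = 1.00), and without IL-10+ control array 2 the difference was 0.35.

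Tram2, a relative of the channel-associated protein Tram1 that has been linked to collagen synthesis, had the smallest p of the 42 genes in the sort contrast of HDM mice. Its probe lies at chromosome 1, 20991489 to 20991548 (mm9, the build of the array annotation; whether probes fall in coding or untranslated sequence was not analysed here). It was at -2.26, -1.47 and -2.58 in IL-10+ HDM cells and at -6.52, -6.26 and -6.03 in IL-10- HDM cells. The signal was well above background on all 3 IL-10+ HDM arrays and on none of the IL-10- HDM arrays. Only a bound can therefore be given. The bound sets the bright group's mean against the lowest signals that were well above background on the dim arrays. It put Tram2 4.34-fold higher in IL-10+ cells, a log2 of 2.12. This is a point value in the main scaling and allows for no spread between arrays. The measured log2 difference was 4.16 (SE 0.91, unadjusted p = 0.000951, adjusted p = 0.130 in limma), and its adjusted p was 0.0467 when only these 2 groups entered the fit. With the normexp background correction the log2 difference was 1.08, below that bound.

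In control mice Tram2 was at -1.54, -2.19 and -4.62 in IL-10+ and -5.96, -3.27 and -2.93 in IL-10- cells, above background on 2 of 3 arrays in each, and the groups overlapped (log2 difference 1.27). IL-10+ control array 3 and IL-10- control array 1 were the dim ones. Averaged over both kinds of mice the difference was 2.72 (SE 0.64, adjusted p = 0.159), and the difference between the sort contrasts was 2.90 (SE 1.28, adjusted p = 0.757). Between IL-10- cells of HDM and control mice no fold is given, because 1 of 3 control arrays and all 3 HDM arrays were not above background (adjusted p = 0.518 in limma). Tram1, which contacts the chain as it enters the channel, was at -1.09, -1.82 and -3.47 in IL-10+ HDM and -0.89, -5.94 and -4.33 in IL-10- HDM cells, where only array 1 was above background. The groups overlapped. Its averaged sort difference was 0.90 (SE 0.80, adjusted p = 0.769), or 1.61 without IL-10- HDM array 1 and 0.35 without array 2.

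**Figure D5:**
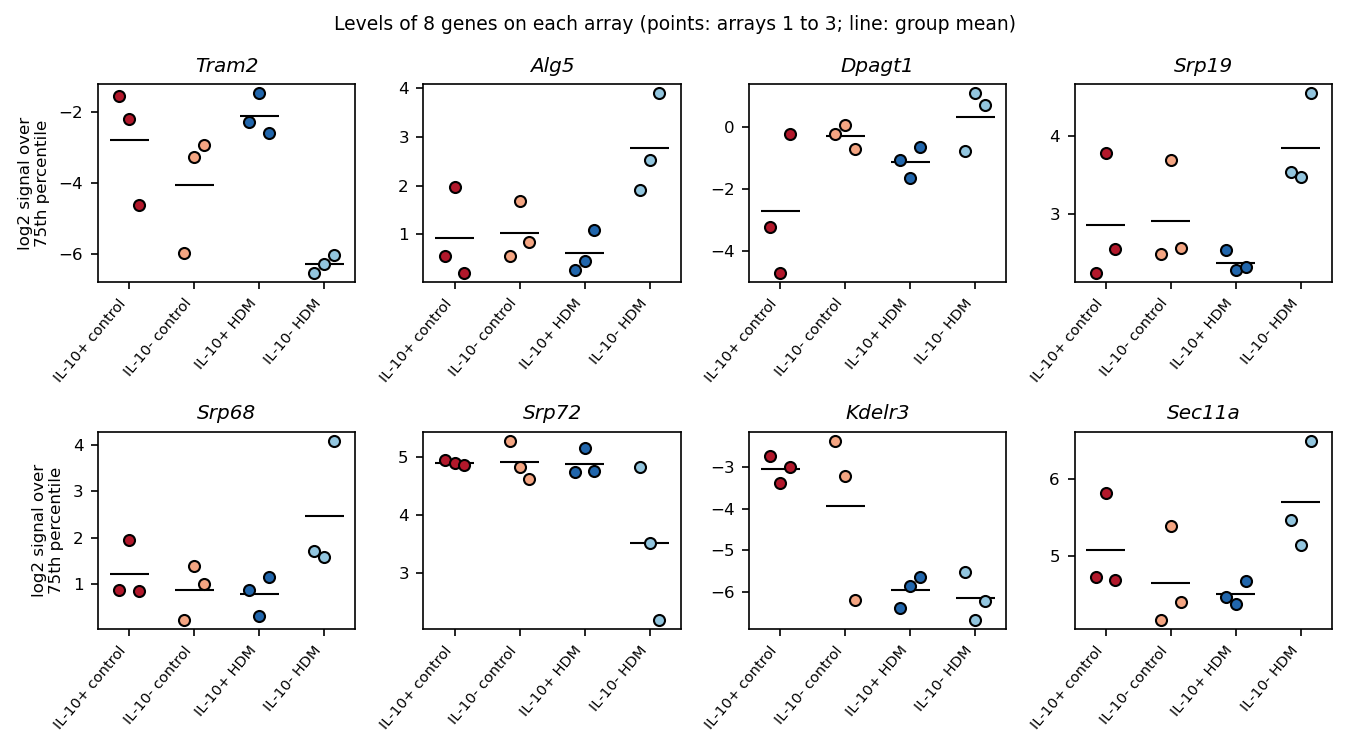
Log2 level over the array's 75th percentile (vertical axis, own range per panel) of 8 genes in the 4 groups (horizontal axis); points are arrays 1 to 3 from left to right and the line is the group mean. Tram2 lies between -6.52 and -6.03 on the IL-10- HDM arrays, Alg5 has its highest group mean there, with arrays at 1.91 to 3.90, and Kdelr3 is at -5.52 or below on all 6 HDM arrays.

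Signal peptidase had a median sort difference of -0.85 in HDM mice and of 0.42 in control mice, where all 5 genes were positive; within IL-10+ cells all 5 were lower in HDM mice. Sec11a, one of its alternative catalytic subunits, was at 4.47, 4.37 and 4.68 in IL-10+ HDM and 5.47, 5.15 and 6.50 in IL-10- HDM cells, without overlap (log2 difference -1.20, SE 0.49, unadjusted p = 0.0334, adjusted p = 0.344; limma). A second Sec11a probe gave -1.02. The difference between the sort contrasts of HDM and control mice was -1.62 (SE 0.69, adjusted p = 0.757). Sec11c, the other catalytic subunit, was at 0.83, 0.83 and 1.19 in IL-10+ HDM and 1.68, 0.26 and -6.03 in IL-10- HDM cells. IL-10- HDM array 3 was not above background, and Sec11c's averaged sort difference of 1.74 was 0.58 without it.

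Of the accessory subunits, Spcs3, which is needed for catalysis, was at 3.09, 4.13 and 2.10 in IL-10- control and 4.09, 4.39 and 4.42 in IL-10- HDM cells. The groups overlapped (log2 difference 1.20, SE 0.53, unadjusted p = 0.0478, adjusted p = 0.544; limma), the difference was 0.70 without IL-10- control array 3, and a second Spcs3 probe gave -0.78. Spcs1 was at 2.17, 3.89 and 2.73 in IL-10+ control and 1.98, 2.74 and 1.10 in IL-10- control cells, with array 2 of the first group above the others (log2 difference 0.99, SE 0.60, unadjusted p = 0.133, adjusted p = 1.00); the difference was 0.51 without that array and 0.57 without IL-10- control array 3. Spcs2 had a sort difference of 0.018 in HDM mice and 0.22 in control mice.

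The translocon-associated complex, which assists certain signal sequences, had the narrowest range of the 7 roles in the sort contrast of HDM mice, with differences between -0.60 and -0.078. This range holds for the probes used. Further probes gave -0.72 for Ssr3 and -0.68 and 0.59 for Ssr1. Ssr1, its alpha subunit, was at 3.53, 3.54 and 3.15 in IL-10+ HDM and 4.25, 3.92 and 3.84 in IL-10- HDM cells, without overlap, and had a difference of -0.60. In control mice it was at 3.36, 4.60 and 3.72 in IL-10+ and 3.15, 3.79 and 3.11 in IL-10- cells (log2 difference 0.54, SE 0.38, unadjusted p = 0.184, adjusted p = 1.00; limma), while the difference was 0.19 without IL-10+ control array 2 and -0.39 for the mean of its 3 probes. Ssr3, the gamma subunit, was at 2.57, 2.85 and 3.11 in IL-10+ control and 3.44, 3.51 and 3.21 in IL-10- control cells, every IL-10+ array being lower (log2 difference -0.55, SE 0.30, unadjusted p = 0.0979, adjusted p = 1.00), while a second probe gave 0.087. In IL-10+ HDM cells Ssr3 was at 3.28, 3.71 and 3.07, a log2 difference of 0.51 from IL-10+ control cells, while the second probe gave -0.43. Ssr2 and Ssr4 had sort differences of -0.17 each in HDM mice. After quantile normalization Ssr1 alone of the 4 stayed negative in that contrast, and the median of the role turned from -0.17 to 0.21.

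Oligosaccharyltransferase had a median sort difference of -0.49 in HDM mice, 5 of 6 genes being negative and 4 without overlap, and of -0.073 in control mice, or 0.064 there in the authors' deposited table. Its alternative catalytic subunits, with Ssr3, had the lowest SD of the 42 genes over the 12 arrays, 0.298 for Stt3a and 0.329 for Stt3b. Stt3a, which acts as the chain enters, was at 5.50, 5.59 and 5.06 in IL-10+ HDM and 5.90, 5.88 and 6.02 in IL-10- HDM cells, a difference of -0.55 without overlap. Stt3b, which also acts on completed chains, was at 3.91, 3.83 and 3.55 in IL-10+ HDM and 4.34, 4.20 and 4.07 in IL-10- HDM cells, a difference of -0.44, again without overlap; a second probe gave -1.32. Averaged over both kinds of mice the differences were -0.31 (adjusted p = 0.698) and -0.27 (adjusted p = 0.772). The noncatalytic subunits Rpn1 and Rpn2 had differences of -1.32 (SE 0.56, unadjusted p = 0.0378) and -1.85 in HDM mice without overlap, and Ddost -0.43 with overlap. Dad1 had a difference of 1.67, with IL-10- HDM array 3 at -2.48 while the other 11 arrays lay between 2.37 and 4.35.

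Glycan assembly and trimming had the lowest sort median in HDM mice, -1.08, and 0.062 in control mice. Alg5 was read at chromosome 3, 54552570 to 54553164, and Dpagt1 at chromosome 9, 44141547 to 44141606 (mm9). Alg5, which makes the glucose donor dolichyl-phosphate glucose, was at 0.27, 0.46 and 1.10 in IL-10+ HDM and 1.91, 2.53 and 3.90 in IL-10- HDM cells. All 3 IL-10- HDM arrays were higher (log2 difference -2.17, SE 0.62, unadjusted p = 0.00551, adjusted p = 0.232; limma). They were also above all 3 IL-10- control arrays, at 0.55, 1.68 and 0.84 (log2 difference 1.75, SE 0.62, unadjusted p = 0.0173, adjusted p = 0.478). In IL-10+ control cells Alg5 was at 0.57, 1.98 and 0.21, where array 2 lay above the lowest IL-10- HDM array. With slide as a block the sort difference in HDM mice was -2.44 (SE 1.17, unadjusted p = 0.0662, adjusted p = 0.640; limma). The slide term there rests on the IL-10- control group, the only one on both slides. Within slide 2, with 1 control array, the HDM difference in IL-10- cells was 1.93. The difference between sort contrasts was -2.07 (SE 0.87, adjusted p = 0.757).

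Dpagt1, which starts the dolichol-linked sugar, was at -3.24, -4.71 and -0.23 in IL-10+ control and -0.25, 0.054 and -0.71 in IL-10- control cells. Array 3 of the first group lay within the second (log2 difference -2.42, SE 0.96, unadjusted p = 0.0301, adjusted p = 1.00; limma). In HDM mice it was at -1.09, -1.64 and -0.65 in IL-10+ and -0.79, 1.07 and 0.69 in IL-10- cells, and averaged over both the difference was -1.94 (SE 0.68, adjusted p = 0.409). With the normexp correction the control difference was -1.06, and leaving out array 2 or array 3 of the IL-10+ control group gave -1.43 or -3.67. The mannosyltransferase genes Alg3 and Alg2 had sort differences of -1.09 and 0.11 in HDM mice, Alg2 being above background on 7 of 12 arrays. The glucosidase II subunits were opposite in sign there: catalytic Ganab had -1.06 and its partner Prkcsh 0.28, which turned to -0.52 in the authors' deposited table. Prkcsh was at 1.02, 0.49 and 1.47 in IL-10+ control and 1.68, 1.26 and 1.27 in IL-10- control cells, with overlap (log2 difference -0.41, SE 0.39, unadjusted p = 0.310, adjusted p = 1.00), and ran from -0.65 to -0.16 as single arrays were left out.

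ER exit and its cargo receptors had a median sort difference of -0.42 in HDM mice and 0.10 in control mice. Kdelr3, one of the receptors that return resident proteins to the ER, had the smallest p of the 42 genes between HDM and control mice in IL-10+ cells. It was at -2.75, -3.39 and -3.01 in IL-10+ control cells, above background on all 3 arrays, and at -6.37, -5.84 and -5.64 in IL-10+ HDM cells, above background on none (probe at mm9 chromosome 15, 79357588 to 79357647). A bound made as for Tram2 put it 1.88-fold lower in IL-10+ HDM cells, a log2 of 0.91, again without allowance for spread. The measured log2 difference was -2.90 (SE 0.81, unadjusted p = 0.00501, adjusted p = 1.00 in limma). The normexp correction gave -0.59, smaller in size than the bound. All 6 of these arrays lay on slide 1.

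In IL-10- cells Kdelr3 was at -2.38, -3.23 and -6.19 in control and -5.52, -6.66 and -6.20 in HDM mice, above background on 2 of 3 control arrays and on none of HDM mice, so no fold is given (adjusted p = 0.498 in limma). The control array that was not above background was the one on slide 2, and within slide 2 the difference was 0.065 against -2.19 over both slides. With both HDM groups below background, no sort fold is given for HDM mice. Kdelr2, the paralog above background on every array, was at 2.41, 3.29 and 2.87 in IL-10+ control and 2.47, 2.49 and 1.91 in IL-10+ HDM cells, with overlap (log2 difference -0.57, SE 0.35, unadjusted p = 0.131, adjusted p = 1.00; limma), and the difference was -0.35 without IL-10+ control array 2. In IL-10- HDM cells it was at 3.17, 2.63 and 3.33, above every IL-10+ HDM array.

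Sec24d, a cargo-binding subunit of the COPII coat, was above background on 5 of 12 arrays. In IL-10+ cells these were 2 of 3 arrays from control and 2 of 3 from HDM mice, and in IL-10- cells 1 of 3 and none. It was at -6.04, -2.10 and -2.54 in IL-10+ HDM and -5.73, -6.25 and -5.87 in IL-10- HDM cells, where array 1 of the first group overlapped the second and was itself below background, so no fold is given (adjusted p = 0.478 in limma). Nor is one given between IL-10- cells of HDM and control mice, with 1 of 3 control arrays above background (adjusted p = 0.604 in limma). The other coat genes Sec13 and Sec23b had sort differences of -0.43 and -0.42 in HDM mice. Lman1 and Mcfd2, which together carry glycoproteins out of the ER, had -0.24 with overlap and -1.39 without. A second Lman1 probe, above background on 11 of 12 arrays, gave -2.13 for this contrast. With the probes used, IL-10- HDM array 3 was highest of 12 for both genes.

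Other genes of the pathway, 81 measured of 84 listed (Sec61a2 and the tail-anchor route, dolichol sugar assembly, glycan quality control, the COPII and COPI coats), were not called in any of the comparisons either. Their median sort difference was -0.33 in HDM mice, against 0.16 over all genes, with 45 negative (43.1% of all genes) and 36 positive. Of them 21 lay wholly below (11.2% of all genes) and 5 wholly above (11.4%). Among genes well above background on all 12 arrays, 54.1% were negative and 17.9% lay wholly below. How many of the 81 genes belong to that class was not counted. In control mice the median was -0.00061 against -0.037 over all genes. The smallest p among them, averaged over both kinds of mice, were on the lower side Edem3, which trims mannose from misfolded proteins (log2 difference -1.18, SE 0.36, unadjusted p = 0.00864, adjusted p = 0.320; limma), and the mannosyltransferase gene Alg9 (-1.19, adjusted p = 0.382). On the higher side they were the glucosyltransferase gene Alg6 (2.12, adjusted p = 0.469) and Srp54b, which encodes a GTPase of the signal recognition particle (1.60, adjusted p = 0.501).

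Of the unfolded protein response genes set beside the module, Dnajb9 (ERdj4), an ER co-chaperone, passed the test. It was at 1.88, 1.98 and 2.07 in IL-10+ control and 3.46, 4.32 and 3.21 in IL-10- control cells, and at 2.49, 1.86 and 2.23 in IL-10+ and 3.95, 3.76 and 3.74 in IL-10- cells of HDM mice. All 6 IL-10+ arrays were below all 6 IL-10- arrays (averaged log2 difference -1.66, SE 0.24, adjusted p = 0.0263 in limma). Xbp1, whose spliced form drives secretory genes, had an averaged difference of -0.29 (adjusted p = 0.937), and Hspa5, the ER chaperone BiP, of -0.35 (adjusted p = 0.824); for both the groups overlapped.

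For 15 of the 42 genes 1 or more further probes passed the filter, 16 probes in all. In the sort contrast of HDM mice 10 of these 16 had the sign of the probe used, and 9 of the 16 were negative, against 12 of the 15 probes used. In the sort contrast of control mice 8 of 16 shared the sign, between HDM and control mice 5 of 16 in IL-10+ and 10 of 16 in IL-10- cells.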

How the data were processed

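RNA of sorted mouse B cells was measured in 12 samples. Per the labels' protocols, the authors isolated mRNA on beads, amplified its cDNA by PCR with the SuperAmp kit and labelled 250 ng with Cy3. Arrays had design 028005, annotation on mm9, and Agilent Feature Extraction 10.7.3.1, per the file headers. In these deposited files each spot has an intensity, background-subtracted and not normalised between arrays; other values are flags, per the headers. A further table from the authors holds a ratio, the processed signal over the array's median.

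Groups came from sample titles. The log2 processed signal minus each array's 75th percentile was used. Of the 37727 probes well above background on at least 3 of 12 arrays, 79 were left out for outlier flags. The probe of highest mean stood for a gene. limma 3.58.1 in R 4.3.3 (lmFit, eBayes) fitted 4 group means to all 12 arrays, with Benjamini-Hochberg adjustment over 24963 genes, and was tested on simulated data. No spot was saturated. The main fit did not pair samples by replicate number. Deviations of same-numbered arrays from their group means correlated between -0.14 and 0.15. Between IL-10+ and IL-10- arrays of one kind of mice they were 0.033 to 0.15 (control) and 0.019 to 0.067 (HDM). Arrays of different number were not compared, so these values cannot tell whether equal numbers mark paired samples.

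The genes and lists were chosen with earlier results of these data known. Values on each array are given for the 3 genes of smallest p in each direction of each comparison, the 3 of smallest p in the difference between sort contrasts, and 4 paralog pairs; those of Sec61a1 and of the unfolded protein response genes are given besides. Alternatives changed background correction, scaling, filter, probe rule, slide, replicate block, groups in the fit and single arrays. Protein sequences of the paralogs were not analysed here.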

Additional observations from a re-analysis of the deposited data

How the results depend on the processing

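No call among the 42 genes depended on the background correction, the scaling, the filter, the probe rule, the slide or the left-out arrays: 0 genes passed in each. With only the compared groups in the fit, 1 gene passed in the sort contrast of HDM mice, Tram2 (4.16, adjusted p = 0.0467 in limma). A fit with the replicate block also called 0 genes and, the groups being balanced, gave the same medians (-0.44 for the sort in HDM mice). Medians moved by more than the SD between arrays of a group (0.347) in 6 instances. These were -1.24 (sort, HDM mice), 0.99 (HDM, IL-10- cells) and -1.52 (difference between sort contrasts) in the authors' table, whose median over all genes was -0.64, 0.60 and -0.78 there. Quantile normalization gave -0.16 for the last, and slide as a block -0.83 for the sort in HDM mice. Leaving out 1 array at a time gave 0.24 to 0.70 for HDM in IL-10- cells, -0.61 to -0.42 and -0.11 to 0.37 for the sort in HDM and control mice, -0.31 to -0.080 for their average, -0.46 to -0.0015 for HDM in IL-10+ cells, and -0.82 to -0.36 for the difference between sort contrasts.

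Among the differences of the genes chosen by the naming rule, signs turned for Kdelr3 with slide as a block (0.065 for HDM in IL-10- cells, also within slide 2, which was chosen after seeing the data, and -1.72 for the averaged sort) and when arrays were left out (-0.032 to 0.92 for the averaged sort). They also turned for Ssr1 with the mean of all probes (-0.39, sort in control mice) and for Tram2 when arrays were left out (-0.24 to 1.30, HDM in IL-10+ cells). The cause was not tested. The requirement of a signal above background on every array leaves no value for 7 dim genes. With 3 arrays a group, their number limits the precision. For signals below background only bounds exist, which depend on the background correction and allow for no spread between arrays.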
